A study of Mus musculus with 4 samples.

Results

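The 10 genes described here encode enzymes that turn arachidonic acid into prostaglandins, thromboxane and leukotrienes: Ptgs1, Ptgs2, Ptges, Tbxas1, Hpgds, Alox5, Alox5ap, Alox15, Ltc4s and Lta4h. They were chosen by name, and all 10 were found among the 31053 features counted. C57BL/6 mice that were Rab37 wild type (WT) or Rab37 knockout (KO) had received either Matrigel, which gave the normal lung samples, or cells of the mouse lung carcinoma line LLC, which gave the lung tumors. Live CD45-positive cells were sorted at day 14 and sequenced with a 10x Genomics 3′ kit. There was 1 library for each of the 4 groups, WT and Rab37 KO from normal lung and WT and Rab37 KO from tumor. CD45 is the surface protein that marks blood-derived cells, so other cells in these libraries passed the sort in small numbers. The labels name no Cre or promoter for the knockout and do not give the number of mice behind a library.

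Eicosanoid synthesis starts when phospholipase frees arachidonic acid from membranes. The cyclooxygenases Ptgs1 (COX-1) and Ptgs2 (COX-2) convert it to prostaglandin H2, from which a terminal synthase makes one product each: Ptges makes prostaglandin E2 (PGE2), Hpgds prostaglandin D2 (PGD2) and Tbxas1 thromboxane A2. Alternatively Alox5, with its helper protein Alox5ap, makes leukotriene A4, which Lta4h converts to the neutrophil attractant LTB4 and Ltc4s to LTC4, the parent of the cysteinyl leukotrienes that contract airways. Alox15 is a separate lipoxygenase known from resident peritoneal macrophages and eosinophils. In lung these lipids are known as mediators of inflammation, airway tone and host defence. Only transcripts were measured here, so the data show which cells held the message for a route and not which lipid was made.

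The data consist of unique molecular identifier (UMI) counts, in which each original RNA molecule is counted once. After filtering, 644 to 5063 cells per library remained, with 5183771 to 34369993 UMIs in all and medians of 3979 to 6556 UMIs per cell. The tumor WT library was the smallest in both. Rab37 itself stood at 8.50 and 4.63 counts per 1000000 UMIs (CPM) in the WT libraries of normal lung and tumor and at 0.385 and 0.266 CPM in the KO libraries, as the labels say. The tumor libraries differed in sex as well as genotype: 417 of 644 tumor WT cells had Xist but no Y-linked UMI and 0 had the reverse, while in tumor Rab37 KO 33 of 2725 cells had the first pattern and 1662 the second. Both normal libraries held both kinds of cell. In tumors, sex and genotype therefore cannot be told apart, nor can tissue and library software version (3.0.1 for normal lung, 3.1.0 for tumor). Pairs of libraries shared 0 to 6 cell barcodes. With 1 library per group there is no spread between replicates, so no p-value is given, and every interval below is a 95% interval for counting error only.

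Levels are CPM of the UMIs summed over the cells of a class, with an exact Poisson interval. A 3′ count is not scaled by transcript length, so levels are compared within a gene and across cell classes only. Values for several libraries give WT and then Rab37 KO of normal lung, followed by WT and then Rab37 KO of tumor. Cell classes come from clustering, are named from marker genes, and carry the ending "-like". Clusters without a clear marker match keep the name of their leading genes: an Arg1/Pf4-led cluster (monocyte and macrophage markers together, 556 of its 599 cells from tumor Rab37 KO and 40 from tumor WT), a Prg4-led cluster of 21 cells from normal lung, a Rhox5-led cluster of 56 cells from the tumors and a cycling cluster. Neutrophil-like cells numbered 387, 566, 212 and 1321, alveolar macrophage-like cells 961, 678, 21 and 227, macrophage-like cells 121, 131, 141 and 127, T-like cells 1635, 1498, 59 and 83 and B-like cells 688, 648, 55 and 65. The CD45 gene Ptprc was found in 87.0% to 92.9% of cells. T-like and B-like levels serve as the background of free RNA in each library, except for Alox5, Alox5ap and Lta4h, which lymphocytes are known to hold, and for Hpgds in B-like cells, where the level differed from that of T-like cells beyond counting error.

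The 2 cyclooxygenase genes had different patterns, and the DNA just before their start sites is printed for comparison (RefSeq, GRCm38.p6, 250 bases ending at the base before the start, 5′ to 3′ on the gene's strand). Capitals mark matches to any of 6 motifs searched on both strands: TATAAA, TTNNGNAAT (C/EBP), NF-kB (GGGA, any 4 bases, CC), GAGGAAG (PU.1), GGGCGG (GC box) and TGACGT (CRE). Ptgs1 lies at chr2:36230426-36252272 and Ptgs2 at chr1:150100031-150108227, both on the plus strand in mm10, and the stretches shown are chr2:36230176-36230425 and chr1:150099781-150100030.
Ptgs1: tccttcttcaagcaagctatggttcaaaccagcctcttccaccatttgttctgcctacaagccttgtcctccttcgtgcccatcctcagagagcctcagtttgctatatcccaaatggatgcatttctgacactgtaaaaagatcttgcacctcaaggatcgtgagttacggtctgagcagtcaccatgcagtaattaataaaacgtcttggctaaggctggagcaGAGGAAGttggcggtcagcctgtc
Ptgs2: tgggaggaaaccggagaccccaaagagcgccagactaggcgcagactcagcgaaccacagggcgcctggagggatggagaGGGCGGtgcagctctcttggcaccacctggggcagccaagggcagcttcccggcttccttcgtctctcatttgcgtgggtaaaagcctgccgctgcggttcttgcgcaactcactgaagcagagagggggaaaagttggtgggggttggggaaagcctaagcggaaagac
The Ptgs1 stretch held 1 PU.1 match, whose first base is at -24, and had a GC content of 48%. The Ptgs2 stretch held 1 GC box match at -170 and had a GC content of 61.6%. Of all 27025 promoters of that length in the table, 10.4% held the PU.1 motif and 32.9% the GC box. The TATA, C/EBP, NF-kB and CRE letters, found in 13%, 10.3%, 17.3% and 6.56% of promoters, were in neither stretch, which says nothing about binding of those factors. No motif overlapped another in these 2 stretches.

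Ptgs2, the inducible cyclooxygenase, was highest in neutrophils in all 4 libraries. Neutrophil-like cells held 2381 CPM (2283 to 2482), 2677 CPM (2598 to 2758), 948 CPM (871 to 1030) and 1739 CPM (1710 to 1769). These were the highest levels of any class of at least 50 cells in each library, and the 4 intervals did not overlap. When each cell was classed singly by marker score rather than through its cluster, endothelial-like cells became the highest class in tumor Rab37 KO. Neutrophil-like cells supplied 51.7%, 59.1%, 44.5% and 44.4% of all Ptgs2 UMIs. After each cell was thinned to 1500 UMIs, 75.7%, 79.8%, 45.2% and 66.8% of neutrophil-like cells still held a Ptgs2 UMI (80.1%, 86.9%, 51.9% and 77.3% without thinning).

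The Arg1/Pf4-led cluster came next in the tumors, at 588 CPM (512 to 671) in WT and 1391 CPM (1367 to 1414) in Rab37 KO, where it supplied 44.9% of the library's Ptgs2 UMIs. Monocytes lay lower: classical monocyte-like cells held 244, 266, 189 and 158 CPM, and nonclassical monocyte-like cells held 342, 636 and 993 CPM in the 3 libraries with at least 50 such cells. Macrophage-like cells held 222, 262, 74.5 and 320 CPM. In tumor Rab37 KO the nonclassical monocyte-like level was thus the third highest among classes of at least 50 cells, and the classical monocyte-like level lay below that of macrophages. Ptgs2 was not limited to myeloid classes. Fibroblast-like cells of normal Rab37 KO held 330 CPM, and the 39 of normal WT held 129 UMIs. Rhox5-led cells of tumor Rab37 KO held 290 CPM. Alveolar macrophage-like cells, which patrol the air spaces, were at the other end with 5.44, 12.9, 22.1 and 34.9 CPM. T-like cells held 1.99, 2.69, 18.1 and 53.6 CPM and B-like cells 0.362, 1.32, 0 and 79.9 CPM. The alveolar macrophage level of tumor Rab37 KO lay below the T-like and B-like levels of its own library, which rest on 25 and 20 UMIs. It lay above the 23.5 CPM of NK-like cells there, from 6 UMIs. Without cells with at least 1% neutrophil marker UMIs, alveolar macrophage-like cells stood at 28.0 CPM and T-like cells at 28.3 CPM. The alveolar macrophage level of that library was therefore not told apart from background.

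Part of the Ptgs2 signal in other myeloid classes moved with neutrophil RNA. Cells in which the 10 neutrophil markers made up at least 1% of UMIs were 13.2%, 18.3%, 9.22% and 30.7% of macrophage-like cells, 22.5% and 49.6% of the Arg1/Pf4-led cluster in tumor WT and tumor Rab37 KO, and 28.5%, 30.5% and 55.1% of nonclassical monocyte-like cells in normal WT, normal Rab37 KO and tumor Rab37 KO. Without those cells Ptgs2 stood at 151, 127, 67.5 and 215 CPM in macrophage-like cells, at 551 and 1297 CPM in the Arg1/Pf4-led cluster and at 63.1, 142 and 320 CPM in nonclassical monocyte-like cells. The Arg1/Pf4-led cluster thus stayed high, while nonclassical monocyte-like cells lost the largest part of their level. If every neutrophil-marker UMI in a class had carried Ptgs2 in the ratio seen in neutrophils, this would equal 31.3%, 41.9%, 58.6% and 57.4% of the Ptgs2 of macrophage-like cells and 16.1% and 22.2% of that of the Arg1/Pf4-led cluster. The part of free neutrophil RNA or joined cells in these levels was not tested.

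**Figure D1:**
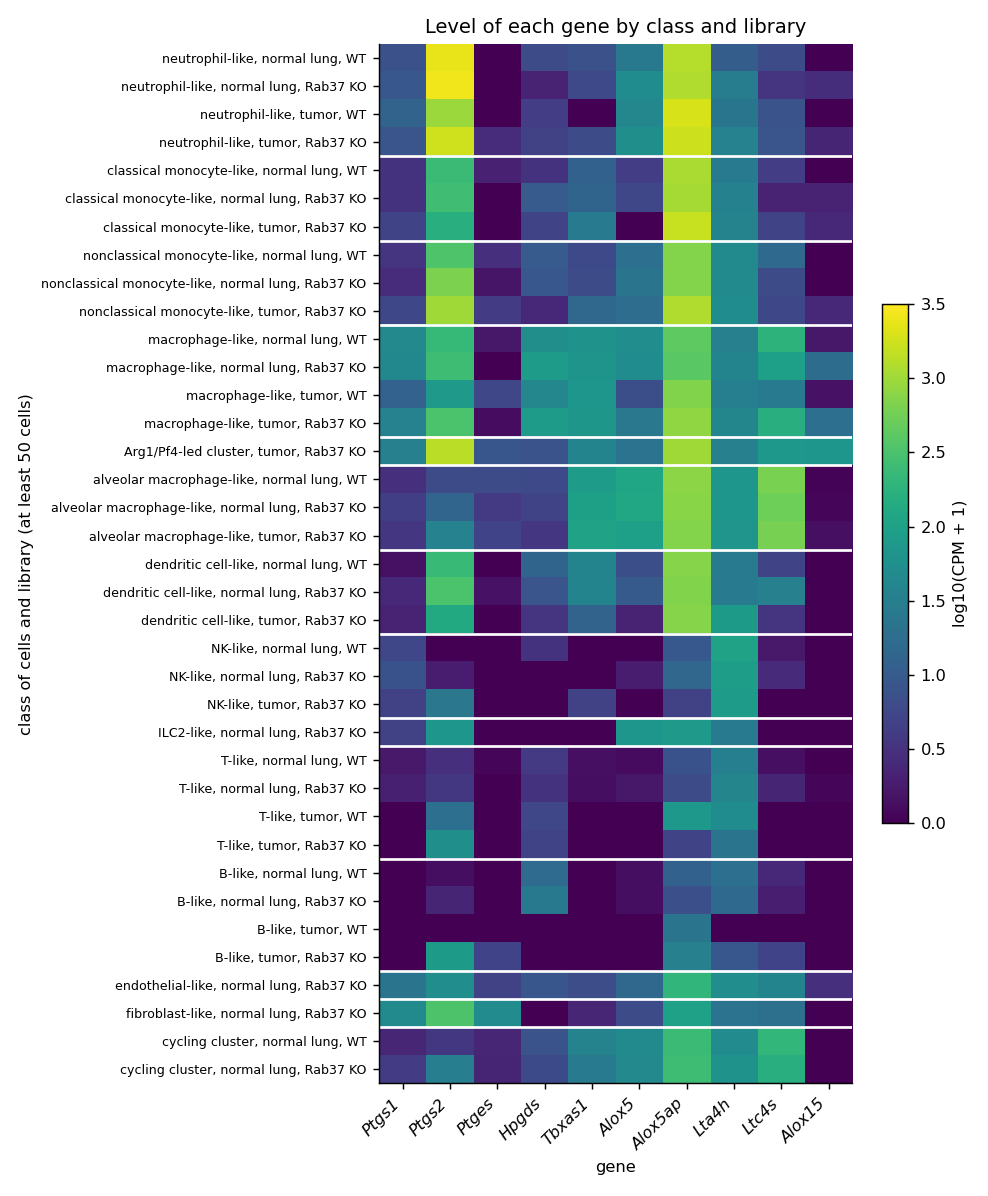
Levels of the 10 genes (columns) as log10(CPM + 1), shown as colour, by cell class and library (rows, classes with at least 50 cells in a library). Ptgs2 is highest in neutrophil-like cells, at 948 to 2677 CPM, and Ltc4s in alveolar macrophage-like cells, at 534 to 617 CPM in the 3 libraries with enough of them.

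Ptgs1, the constitutive cyclooxygenase, showed another distribution and low levels throughout. Macrophage-like cells held 43.1 CPM (33.0 to 55.2), 41.9 CPM (32.3 to 53.4), 11.6 CPM (7.49 to 17.1) and 35.1 CPM (28.9 to 42.4). Fibroblast-like cells of normal lung were at 73.3 CPM in 39 WT cells and 45.8 CPM in 82 KO cells, and endothelial-like cells at 66.3 CPM in 25 WT cells and 21.3 CPM in 60 KO cells. Neutrophil-like cells held only 6.44, 8.02, 11.9 and 7.49 CPM. Alveolar macrophage-like cells held 2.05, 3.41 and 2.60 CPM in the libraries with at least 50 of them. The highest Ptgs1 levels were in small clusters, 224 and 260 CPM in the 15 and 6 Prg4-led cells of normal WT and normal Rab37 KO and 118 and 99.6 CPM in the Rhox5-led cells of tumor WT and tumor Rab37 KO.

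Ptges, the inducible PGE2 synthase (chr2:30889471-30929863, minus strand), was low in immune classes. Neutrophil-like cells had 0 Ptges UMIs in 3 libraries, which allows up to 3.22, 1.85 and 5.09 CPM at 3 counts, and 1.74 CPM in tumor Rab37 KO. Macrophage-like cells held 0.695, 0, 4.63 and 0.320 CPM. Alveolar macrophage-like cells held 5.44, 2.97 and 4.08 CPM in the libraries with at least 50 of them, but, being many, supplied 55.0% and 32.1% of the Ptges UMIs of normal WT and normal Rab37 KO. The highest levels were in stromal and unnamed cells: fibroblast-like cells of normal lung held 107 CPM (75.9 to 147) in WT and 48.5 CPM (34.0 to 67.2) in KO, which was 34.2% and 42.9% of the UMIs, and Rhox5-led cells of the tumors held 77.3 CPM (57.0 to 102) in WT and 129 CPM (117 to 141) in KO. The Rhox5-led cells, 12 and 44 in number, supplied 68.6% and 80.8% of all Ptges UMIs of their libraries. They had a median of 74632.5 UMIs per cell, and their leading genes also included Col3a1 and Lum.

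Hpgds, the hematopoietic PGD2 synthase (chr6:65117293-65144908, minus strand), was highest in macrophages. Macrophage-like cells held 53.5 CPM (42.2 to 66.8), 82.5 CPM (68.8 to 98.1), 40.7 CPM (32.7 to 50.2) and 81.2 CPM (71.5 to 91.8), and they supplied 27.1% and 40.3% of the UMIs in normal lung and 84.6% and 70.0% in the tumors. Most Hpgds UMIs of normal lung thus came from other classes. Both KO libraries lay above both WT libraries, without overlap of their intervals, but the tumor libraries held different macrophage clusters. Within clusters the ratio of tumor Rab37 KO over tumor WT was 1.30 (0.867 to 1.93) in the cluster led by Gpnmb, Trem2 and Spp1 and 1.72 (0.891 to 3.82) in that led by C1qa, C1qc and Fcrls, intervals that both span 1. Alveolar macrophage-like cells held 5.00, 4.29, 4.42 and 2.60 CPM and neutrophil-like cells 1.23 to 5.37 CPM. B-like cells of normal lung held 15.6 CPM (11.3 to 21.0) and 25.3 CPM (20.0 to 31.7), above the 2.99 CPM (1.91 to 4.45) and 2.22 CPM (1.34 to 3.47) of T-like cells, while the 55 and 65 B-like cells of the tumors had 0 UMIs, which allows up to 16.1 and 12 CPM. In WT that limit lies above the level of normal lung, so a difference was not detectable at this depth, and in Rab37 KO it lies below the level of normal lung.

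Tbxas1, thromboxane A synthase (chr6:38875404-39084585, plus strand), was shared by alveolar macrophage-like and macrophage-like cells. The former held 83.3 CPM (78.1 to 88.8), 96.6 CPM (90.3 to 103), 177 CPM (126 to 241, from 40 UMIs in 21 cells) and 103 CPM (91.1 to 116). The latter held 61.8, 63.2, 68.9 and 70.9 CPM, with intervals that all overlapped. Alveolar macrophage-like cells supplied 76.6% and 77.2% of the Tbxas1 UMIs in normal lung but 18.4% and 29.0% in the tumors, where macrophage-like cells supplied 68.7% in WT and 23.2% in KO. In tumor Rab37 KO the largest share, 36.8%, came from the Arg1/Pf4-led cluster, at 37.1 CPM. Dendritic cell-like cells were at 37.5, 36.8, 30.8 and 12.1 CPM and neutrophil-like cells at 0 to 6.44 CPM.

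The 4 genes of the leukotriene routes had different distributions. Alox5, the 5-lipoxygenase itself (chr6:116410077-116461178, minus strand), was highest, among classes of at least 50 cells in normal lung, in alveolar macrophage-like cells, at 117 CPM (111 to 123) and 124 CPM (117 to 132). The 15 and 6 Prg4-led cells held 130 CPM (87.0 to 187) and 220 CPM (138 to 334). In the tumors alveolar macrophage-like cells held 61.9 CPM (33.8 to 104) in WT and 95 CPM (83.7 to 107) in KO. Neutrophil-like cells held less, 24.7 CPM (15.6 to 37.0), 48.7 CPM (38.6 to 60.7), 40.7 CPM (26.1 to 60.5) and 54.0 CPM (48.9 to 59.6). ILC2-like cells, type 2 innate lymphoid cells, were high for lymphoid cells with 91.6 CPM (53.3 to 147, 17 UMIs in 38 cells) and 67.9 CPM (40.2 to 107, 18 UMIs in 52 cells). Their Alox5ap level was 91.6 and 75.4 CPM, and Ltc4s had 0 UMIs in both.

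Alox5ap, the protein that presents arachidonic acid to Alox5 (chr5:149264767-149288153, plus strand), was found across the myeloid classes. Neutrophil-like cells held 1299, 1215, 1949 and 1725 CPM and classical monocyte-like cells 1152, 1069, 1266 and 1590 CPM. Neutrophils were the higher of the 2 in each library without overlap of intervals, but when ribosomal protein and mitochondrial genes were left out of the total, classical monocyte-like cells became the highest class in all libraries except tumor WT. Alveolar macrophage-like cells held 776, 745, 455 and 719 CPM, dendritic cell-like cells 739, 692, 609 and 738 CPM and macrophage-like cells 424, 401, 680 and 841 CPM. T-like cells had 6.72, 5.61, 72.2 and 4.29 CPM.

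Ltc4s, the LTC4 synthase (chr11:50236461-50238616, minus strand), was concentrated in alveolar macrophages. Alveolar macrophage-like cells held 617 CPM (602 to 632), 534 CPM (519 to 549), 486 CPM (400 to 586) and 601 CPM (572 to 631). They supplied 89.1% and 88.4% of all Ltc4s UMIs in normal lung and 50% and 53.5% in the tumors, where they were few. At 1500 UMIs per cell, 57.9%, 54.2%, 42.9% and 58.1% of them held a Ltc4s UMI. Macrophage-like cells held 181, 92.8, 26.8 and 158 CPM, the Prg4-led cells 690 and 671 CPM and neutrophil-like cells 2.47 to 7.49 CPM. An antisense gene, Gm26542, overlaps 268 exonic bases of Ltc4s on the other strand and had 182 UMIs in all against 17294 for Ltc4s. The antisense genes that overlap exons of Alox5ap and Tbxas1 had 0 and 1 UMIs. Gm43621, which overlaps 148 exonic bases of Ptgs1 on the other strand, was not among the features counted. Tbxas1 also lies opposite Hipk2 (4839 UMIs) and 1700025N23Rik (18 UMIs), without overlap of exons. No source used here says whether counting used strand.

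Lta4h, the LTB4-forming hydrolase (chr10:93453411-93484875, plus strand), was spread over many classes. NK-like cells held 104, 90.8, 94.1 and 82.2 CPM, alveolar macrophage-like cells 67.6, 68.8, 53.1 and 66.1 CPM and macrophage-like cells 32.6, 36.7, 31.5 and 39.0 CPM. Neutrophil-like cells were lowest of these at 9.66 CPM (4.42 to 18.3), 29.0 CPM (21.3 to 38.5), 22 CPM (11.7 to 37.7) and 34.9 CPM (30.8 to 39.4).

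**Figure D2:**
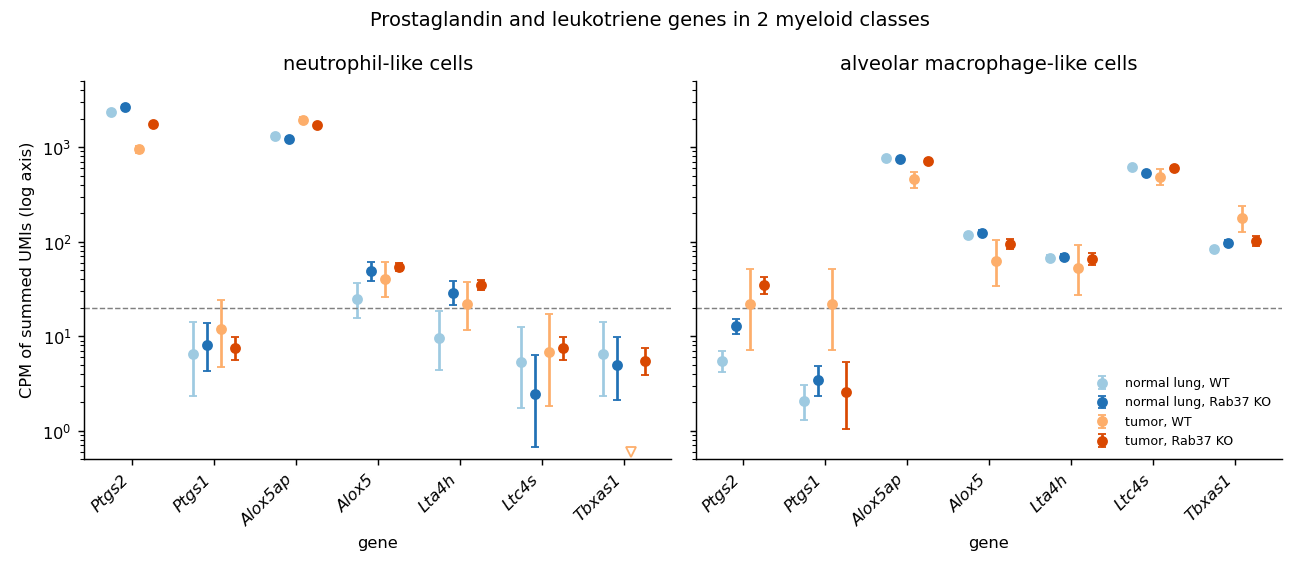
Levels in CPM (log axis, with 95% Poisson intervals) of 7 of the genes in neutrophil-like and alveolar macrophage-like cells of each library. The dashed line marks 20 CPM and an open triangle a count of 0. Ptgs2 is at 948 to 2677 CPM in neutrophil-like and 5.44 to 34.9 CPM in alveolar macrophage-like cells, and Ltc4s is at 2.47 to 7.49 and 486 to 617 CPM.

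Alox15 (chr11:70344152-70352031, minus strand) was held by a handful of cells. In normal WT, 378 of 384 UMIs (98.4%) came from the 15 Prg4-led cells, which stood at 1694 CPM (1527 to 1874). In normal Rab37 KO, 317 of 401 UMIs (79.1%) came from 6 such cells, at 3176 CPM (2836 to 3545), and 51 (12.7%) from 30 epithelial-like cells, 50 of them in 2 cells. Alox15 was among the genes that lead this cluster but was not used to build it. Those cells in normal WT with at least 5 Alox15 UMIs, 13 in number, also held Prg4 at 4596 CPM, Timd4 at 161 CPM and Gata6, a factor known from peritoneal and pleural cavity macrophages, at 120 CPM. Their Ltc4s stood at 692 CPM and their Ptgs1 at 231 CPM. No other class of normal WT exceeded 3 Alox15 UMIs.

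In tumor Rab37 KO the Arg1/Pf4-led cluster held 645 Alox15 UMIs, 628 of them in 22 of its 556 cells. Those 22 cells held Prg4 at 1549 CPM, Serpinb2 at 1563 CPM, Cd5l at 397 CPM and Gata6 at 67.7 CPM, against 20.4, 106, 9.23 and 0.563 CPM in the other 534. Their Ltc4s was 238 against 61.6 CPM, their Ptgs1 219 against 20.8 CPM and their Alox5 60.7 against 17.8 CPM. Timd4 stood at 3.47 CPM in them, far below the 161 CPM of the cells in normal WT. The cells were picked for Alox15, so these values are a description of them. Single cells made up other Alox15 values: all 25 UMIs of macrophage-like cells in normal Rab37 KO came from 1 cell, as did 52 of 57 in tumor Rab37 KO. The tumor WT library held 1 Alox15 UMI in all.

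To ask which lineage held the message for a whole route, a class was counted where the lower Poisson bound of every enzyme of the route reached 20 CPM. The classes with at least 50 cells gave 37 pairs of class and library. Prostaglandin H2 (either cyclooxygenase) was covered in 25, thromboxane A2 in 9, LTB4 in 9, LTC4 in 7, PGD2 in 4 and PGE2 and Alox15 in 1 each. For PGE2 only Ptges was counted as the terminal synthase, so Ptges2 and Ptges3 of the longer pathway list below played no part. The 25 include T-like and B-like cells of tumor Rab37 KO, whose Ptgs2 serves as the free RNA level given above. They also include alveolar macrophage-like cells of that library, whose Ptgs2 was not told apart from it. The same Ptgs2 counts toward their thromboxane A2 pair.

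Neutrophil-like cells passed for prostaglandin H2 in all 4 libraries but for none of the terminal synthases counted (Ptges, Hpgds and Tbxas1) in any. They passed for LTB4 in both KO libraries, and in both WT libraries the lower bound of Lta4h was below 20 CPM (4.42 and 11.7 CPM), as was that of Alox5 in normal WT (15.6 CPM). In normal Rab37 KO the Lta4h level rests on 7 cells of the cluster led by Camp, Ngp and Ltf, which held 31 of the 47 UMIs, and the 549 cells of the main cluster stood at 10.6 CPM. The 160 Camp-led cells from Rab37 KO tumors held 161 Lta4h UMIs, at 84.5 CPM. There, the 527 cells of the cluster led by Ifitm1, Lrg1 and Csf3r stood at 23.7 CPM. The 623 cells of the cluster led by Cxcl3, Ccl3 and Ccl4 stood at 14.5 CPM. The rule also favors deeper classes: tumor neutrophil-like cells held 589916 UMIs for WT and 7476517 for Rab37 KO. Their Lta4h intervals, given above, overlap. Alveolar macrophage-like cells passed for LTB4 and LTC4 in normal WT, normal Rab37 KO and tumor Rab37 KO. Their 21 cells in tumor WT were too few to be counted. Macrophage-like cells were the class that passed for PGD2, in all 4 libraries, where they also passed for thromboxane A2, and those of normal lung passed for LTB4 and LTC4 as well. In the tumors their Alox5 bound was 3.20 and 19.1 CPM, so both leukotriene routes were missed, in tumor Rab37 KO by a small margin. Thromboxane A2 was also covered by the Arg1/Pf4-led cluster and alveolar macrophage-like cells of tumor Rab37 KO. Its other pairs were dendritic cell-like cells of both normal libraries and the cycling cluster of normal Rab37 KO. The cycling cluster of both normal libraries passed for LTB4 and LTC4 too. The PGE2 pair was the fibroblast-like class of normal Rab37 KO, and the Alox15 pair was the Arg1/Pf4-led cluster of tumor Rab37 KO. That Alox15 pair rests largely on the 22 cells with at least 5 Alox15 UMIs described above. The fibroblast-like class of normal WT, with 39 cells, and the Rhox5-led cells, with 12 and 44, held both Ptgs2 and Ptges but were below the cell minimum.

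**Figure D3:**
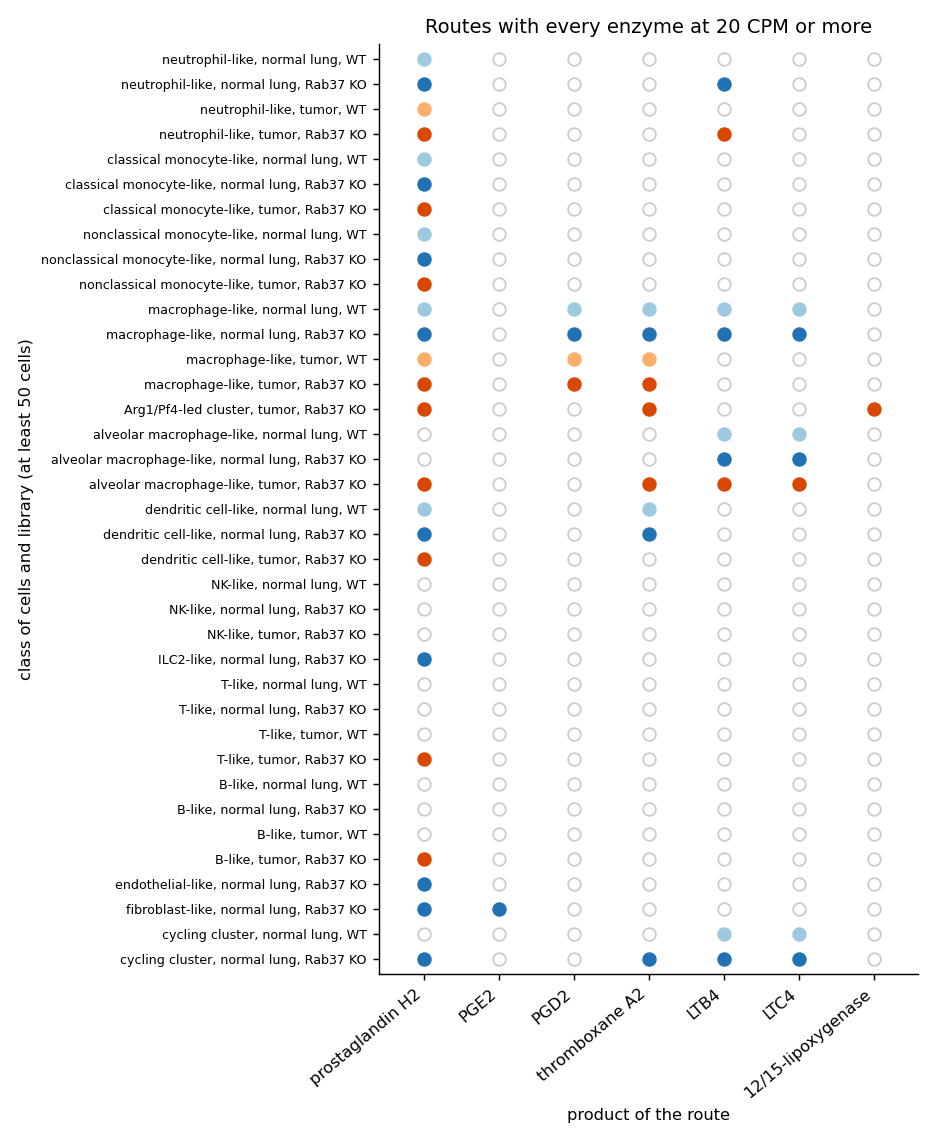
Routes (columns) covered by each class and library (rows), where a filled circle, coloured by library, marks a route whose enzymes all have a lower Poisson bound of at least 20 CPM, in 37 pairs of class and library with at least 50 cells. Macrophage-like cells alone fill the PGD2 column, and alveolar macrophage-like cells fill LTB4 and LTC4 in 3 libraries.

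A class can cover a route while single cells do not. At 1500 UMIs per cell, 5.86%, 6.41% and 3.96% of alveolar macrophage-like cells in normal WT, normal Rab37 KO and tumor Rab37 KO held Alox5, Alox5ap and Ltc4s UMIs together, and 0 of 21 did in tumor WT. Without thinning the shares were 66.4%, 73.9%, 28.6% and 61.7%, so they follow depth. Thinned cells with an Alox5 UMI made up 16.1%, 16.8%, 9.52% and 12.8%.

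Rare lineages known for these lipids were looked for by markers in single cells. Mast cells and basophils are known for LTC4 and PGD2, and at least 3 of their markers were found in 23 cells over all libraries. Of these cells 5 had been called doublets, and whether they are mast cells or basophils was not tested. Together they held Ptgs2 at 766 CPM, Alox5ap at 1027 CPM, Alox5 at 71.1 CPM and Ltc4s at 79.0 CPM, the last from 10 UMIs in 2 cells. Hpgds had 1 UMI in them. No cell met the marker rule for eosinophils, and 37 cells met it for platelets. These 37 held 875313 UMIs in all, no UMI of the platelet tubulin Tubb1, and Alox5ap at 524 CPM, Ptgs2 at 420 CPM and Ltc4s at 109 CPM beside Ptgs1 at 66.3 CPM and Tbxas1 at 28.6 CPM, so they are not called platelets here.

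The comparison of Rab37 KO with WT in tumors was made as a ratio of CPM within a class, with an exact conditional binomial interval. A gene is counted as higher or lower where the ratio is at least 2-fold and both libraries together hold at least 20 UMIs, and the share of all genes that pass the same rule is given as the background. In neutrophil-like cells 0 of the 8 genes with enough UMIs passed, against 7.89% of all genes in the higher and 8.35% in the lower direction. Ptgs2 was 1739 against 948 CPM, a ratio of 1.84 (1.69 to 2.00). Alox5 was at 1.33 (0.880 to 2.10), Lta4h at 1.58 (0.910 to 3.02) and Alox5ap at 0.885 (0.833 to 0.941).

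Most tumor neutrophil-like cells lay in 3 clusters, and Ptgs2 was higher in tumor Rab37 KO in each of them. The cluster led by Ifitm1, Lrg1 and Csf3r held 1493 against 882 CPM, a ratio of 1.69. The cluster led by Cxcl3, Ccl3 and Ccl4 held 2411 against 1708 CPM, a ratio of 1.41. The cluster led by Camp, Ngp and Ltf, which are granule genes of immature neutrophils, held 721 against 34.1 CPM, a ratio of 21.1 (8.23 to 77.7) that rests on 4 UMIs in 19 tumor WT cells. A further 9 cells of tumor WT and 11 of tumor Rab37 KO lay in the G0s2-led cluster of normal lung neutrophils, at 1417 CPM (963 to 2011) and 1861 CPM (1448 to 2355), intervals that overlap. Over the clusters of tumor Rab37 KO, Ptgs2 thus ranged from 721 to 2411 CPM. The ratio between the libraries ranged from 1.41 to 21.1 over the 3 clusters, the last from 4 UMIs in tumor WT.

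In tumor macrophage-like cells 5 of 9 genes were higher and 0 lower, against backgrounds of 10.8% and 2.98%. The median log2 ratio of the 9 genes was 1.60, against 0.20 over all genes tested. Ltc4s was 158 against 26.8 CPM, a ratio of 5.89 (4.48 to 7.88), Ptgs2 320 against 74.5 CPM, 4.30 (3.64 to 5.11), Alox5 24.3 against 6.02 CPM, 4.04 (2.23 to 7.93), and Ptgs1 35.1 against 11.6 CPM, 3.04 (1.95 to 4.90). The fifth, Alox15, rests on the 1 cell named above. Hpgds was at 1.99 (1.56 to 2.57), and Tbxas1 at 1.03 (0.832 to 1.27) differed by less than counting error. Without cells with at least 1% neutrophil marker UMIs the ratio of Ptgs2 was 3.19.

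The macrophage-like class was made of different clusters in the 2 tumor libraries. A cluster led by Gpnmb, Trem2 and Spp1 held 133 of 141 tumor macrophage-like cells in WT and 39 of 127 in KO, and a cluster led by C1qa, C1qc and Fcrls held 8 and 88. Within the Spp1-led cluster Ltc4s was 2.99-fold higher in tumor Rab37 KO, while Ptgs1 (1.89), Lta4h (1.78) and Ptgs2 (1.5) stayed below the 2-fold rule and Tbxas1 was at 0.674. Alox5 there had 6 and 9 UMIs, too few for the rule. Within the C1q-led cluster Ltc4s was at 10.4 and Ptgs2 at 3.03, with only 8 cells in tumor WT, and Ptgs1 (1.16) and Alox5 (1.27) were near 1. The counts of genes above therefore hold for the class as a whole, and of the 4 calls that rest on several cells only Ltc4s passed 2-fold in both clusters.

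**Figure D4:**
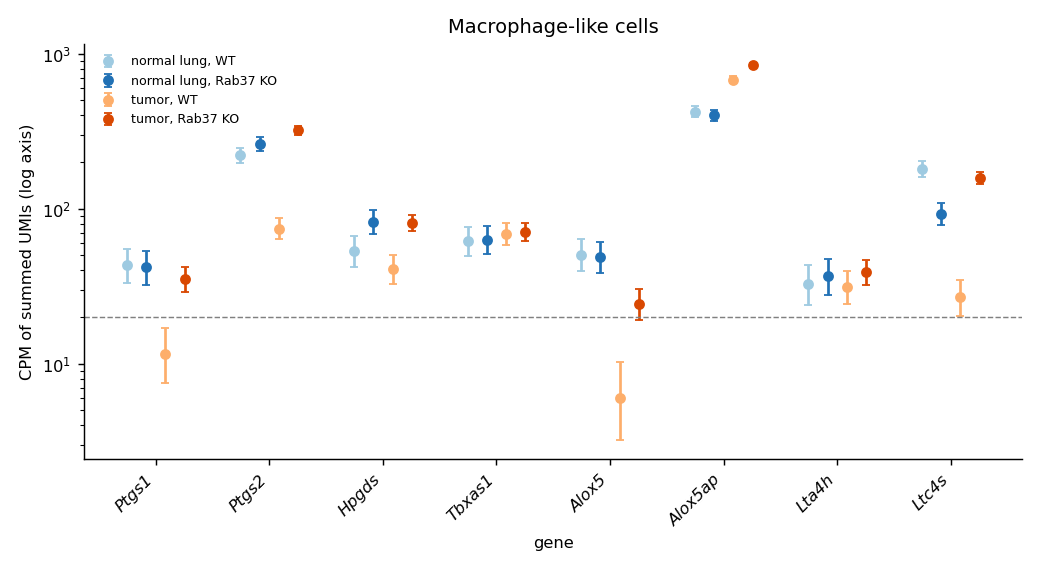
Levels in CPM (log axis, with 95% Poisson intervals) of 8 of the genes in macrophage-like cells of each library. The dashed line marks 20 CPM. The tumor WT library lies lowest for Ptgs1 (11.6 CPM), Ptgs2 (74.5 CPM), Alox5 (6.02 CPM) and Ltc4s (26.8 CPM), while Tbxas1 and Lta4h overlap in all 4.

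In the Arg1/Pf4-led cluster 4 of 10 genes were higher and 1 lower in tumor Rab37 KO, against backgrounds of 7.63% and 13.7%. Ptgs2 was 1391 against 588 CPM, a ratio of 2.37 (2.07 to 2.72), and 77.4% against 44.4% of cells thinned to 1500 UMIs held it. Ptgs1 was at 4.05 (1.37 to 19.7) and Alox5 at 3.77 (1.03 to 31.3), from 3 and 2 UMIs in the 40 tumor WT cells. Alox15 was at least 8.39-fold higher, with tumor WT set at 3 counts over the group, and the exact interval of its ratio starts at 6.81. Ptges was 2.16-fold lower, with an interval of the ratio of 0.202 to 1.30 that spans 1. At clustering resolution 2.0 Ptgs1 was at 1.74 and Alox15 could not be tested, nor could it without cells with at least 5 Alox15 UMIs, and Ptges was at 0.783 without its top cell. At that resolution the Prg4-led cluster, led by Prg4, Saa3 and Alox15, held 37 cells of tumor Rab37 KO and 0 of tumor WT. Macrophage-like cells then became the highest Alox15 class of tumor Rab37 KO among classes of at least 50 cells. Without cells with a Pf4 or Ppbp UMI only the calls of Ptgs2 (2.92) and Alox5 (2.62) were kept. Pf4 and Ppbp, which are also platelet genes, stood at 2912 and 157 CPM in tumor WT and 2971 and 340 CPM in tumor Rab37 KO.

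Other tumor classes gave few calls. Alveolar macrophage-like cells had 0 of 6, against backgrounds of 11.6% and 5.71%, with Ltc4s at 1.24 (1.02 to 1.51), Alox5ap at 1.58 (1.29 to 1.94) and Tbxas1 at 0.581 (0.416 to 0.832). Classical monocyte-like cells had 0 of 4, against 9.24% and 5.61%. Dendritic cell-like cells had 1 of 3 higher and 0 lower, against 6.91% and 8.98%: Ptgs2 at 132 against 24 CPM, a ratio of 5.52 (2.59 to 14.1). Ptgs2 was higher in the background classes of that library as well: in T-like cells at 53.6 against 18.1 CPM and in B-like cells at 79.9 CPM against 0 UMIs. The part of free RNA in the other Ptgs2 ratios was not tested.

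**Figure D5:**
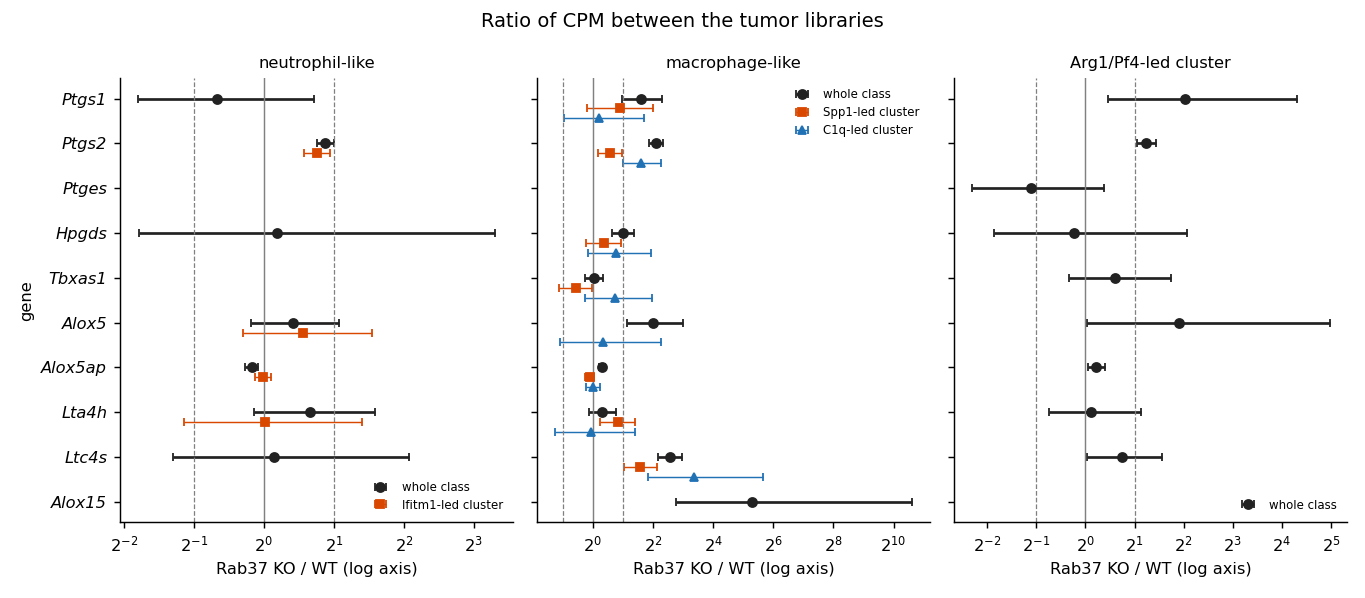
Ratios of tumor Rab37 KO over tumor WT (log axis, with 95% intervals for counting error) for genes with at least 20 UMIs in 3 classes, with squares and triangles for single clusters. Dashed lines mark 2-fold in each direction. Macrophage-like Ltc4s, Ptgs2, Alox5 and Ptgs1 lie at 5.89, 4.30, 4.04 and 3.04, while neutrophil-like genes lie within the lines.

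In normal lung 5 pairs of gene and myeloid class passed the rule between the genotypes. Alveolar macrophage-like cells had 1 of 9 genes higher and 0 lower, against 0.668% and 1.35% of all genes. That gene was Ptgs2 at 12.9 against 5.44 CPM, a ratio of 2.36 (1.72 to 3.28), at a level far below other myeloid classes. Of its 117 UMIs in KO 37 came from 1 cell, and the ratio was 1.90 without the top cell, 1.70 with doublets kept and 1.96 with classes given to each cell, all short of the rule. Ltc4s was at 0.866 (0.834 to 0.898), Alox5 at 1.07 (0.983 to 1.15) and Tbxas1 at 1.16 (1.06 to 1.27). In neutrophil-like cells 1 of 4 passed, against 3.67% and 1.75%: Lta4h at 29.0 against 9.66 CPM, 3.0 (1.45 to 6.97). As a mean over cells this ratio was 1.47. Within the cluster that held 372 of 387 and 549 of 566 of these cells, Lta4h was 10.3 and 10.6 CPM, so the ratio rests on the 7 Camp-led cells. Just below the rule, neutrophil-like Alox5 was 48.7 against 24.7 CPM, a ratio of 1.97 (1.23 to 3.29).

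Normal macrophage-like cells had 1 of 9 genes higher and 0 lower, against 2.09% and 2.46%, the 1 being Alox15 in a single cell. Ltc4s was 92.8 against 181 CPM, a ratio of 0.512 (0.415 to 0.630) just short of 2-fold, and Hpgds was at 1.54 (1.15 to 2.07). Nonclassical monocyte-like cells had Ltc4s at 0.370 (0.154 to 0.799) as 1 of 6 lower and 0 higher, against 2.41% and 1.64%, and Ptgs2 at 636 against 342 CPM, a ratio of 1.86 (1.69 to 2.05). With doublets kept, or without cells with at least 1% neutrophil marker UMIs, that Ltc4s ratio could not be tested. Dendritic cell-like cells had Ltc4s at 7.6 (3.88 to 16.6) as 1 of 7 higher and 0 lower, against 2.47% and 2.04%, but at 1.27 with classes given to each cell. Classical monocyte-like cells had 0 of 4, against 2.82% and 2.08%. The Ltc4s values outside alveolar macrophages thus moved in both directions.

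Tumor was compared with normal lung within each genotype. The neutrophil-like class consisted of other clusters in the tumors than in normal lung, where 1 cluster led by G0s2, Acod1 and Clec4d held nearly all, and the median UMIs per cell were 2248, 2625.5, 2128 and 3484. In WT, Ptgs2 was 2.51-fold lower in tumor neutrophil-like cells (948 against 2381 CPM) and Lta4h was at 2.28 (0.902 to 6.05), 1 gene each way of 4, against 18.8% higher and 7.23% lower. As a mean over cells both fell short of the rule, Ptgs2 at 0.508 and Lta4h at 1.42, and with classes given to each cell Lta4h could not be tested. In KO, Ptgs2 was 1.54-fold lower, below the rule. The KO neutrophil-like cells had 2 of 8 genes higher, against 21.2%, and 0 lower, against 5.20%. These were Hpgds (3.88 against 1.23 CPM) and Ltc4s (7.49 against 2.47 CPM), both low, and with classes given to each cell Hpgds could not be tested.

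In WT macrophage-like cells 4 of 8 genes were lower in tumor and 0 higher, against 17.2% and 7.76%: Alox5 by 8.43-fold, Ltc4s by 6.76-fold, Ptgs1 by 3.72-fold and Ptgs2 by 2.97-fold. Normal lung macrophage-like cells belonged to the C1q-led cluster (120 of 121 in WT), so this compares it with the Spp1-led cluster. In KO, where 88 of 127 tumor cells were C1q-led, 1 of 9 was higher, Alox5ap at 2.10 (1.92 to 2.29, and 1.92 without ribosomal protein and mitochondrial genes in the total), and 1 lower, Alox5 by 2.02-fold, against 9.99% and 10.6%. Alox5 fell short of 2-fold within the C1q-led cluster of the KO libraries, at 29.7 CPM in tumor and 49.6 CPM in normal lung.

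Alveolar macrophage-like cells had 4 of 9 genes higher in WT tumors, against 17.2%, and 0 lower, against 9.58%, and the 4 rest on 3 to 40 UMIs in 21 tumor cells: Ptgs1, Ptgs2, Ptges and Tbxas1. At resolution 2.0 the last 3 were at 0.875, 1.75 and 1.89, short of the rule. In KO 1 of 9 was higher, Ptgs2 at 2.71 (2.05 to 3.59), a level not told apart from the background of its library, and 0 lower, against 2.81% and 2.98%. Dendritic cell-like cells had Ptgs2 lower in tumor by 9.64-fold in WT and 2.43-fold in KO. In KO the ratio of Ptgs2 was 0.678 at resolution 2.0 and turned to 2.76 with classes given to each cell. Their Ltc4s ratio was 10.4 in WT and 0.0750 in KO, from 13 and 2 UMIs in the tumors, and with classes given to each cell 1.02 and 1.78. In KO Tbxas1 was 3.03-fold lower, with a ratio of 0.547 at resolution 2.0 and 1.54 with classes given to each cell, and Lta4h was at 3.14 (2.15 to 4.61). At resolution 2.0 this class split into a cluster nearest the cDC1 markers, with 111, 88, 4 and 10 cells, and one nearest the cDC2 markers, with 88, 61, 23 and 51, so its make-up differed between normal lung and tumor. That makes 1 of 6 genes each way in WT, against 13.1% and 10.2%, and 1 higher and 3 lower of 5 in KO, against 7.56% and 13.3%. In KO classical monocyte-like cells Tbxas1 was at 2.06 (0.921 to 4.82), 1 of 4 higher and 0 lower against 7.75% and 3.69%. Classical monocyte-like cells of WT had 0 of 3, against 11.2% and 8.57%, and nonclassical monocyte-like cells of KO 0 of 4, against 5.21% and 8.73%. These comparisons share libraries with those above.

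A list of 43 further genes of the pathway, of which 42 were matched, covers release, other synthases, breakdown and receptors. Breakdown genes had their own lineages: Hpgd, which inactivates prostaglandins, reached 1072 CPM and its transporter Slco2a1 549 CPM in endothelial-like cells of normal Rab37 KO. Cyp4f18, which inactivates LTB4, was at 667, 667, 232 and 214 CPM in neutrophil-like cells. Fibroblast-like cells of normal Rab37 KO held the prostacyclin synthase Ptgis at 433 CPM and Dpep1, which acts on LTC4 products, at 423 CPM. Neutrophil-like cells of normal WT held Pla2g7 at 515 CPM. Alveolar macrophage-like cells held the highest Akr1b3 (308 CPM), Mgst3 (239 CPM) and Pla2g15 (225 CPM), the cycling cluster the highest Ptges3 (282 CPM) and dendritic cell-like cells of normal Rab37 KO the highest level of the PGE2 receptor Ptger4 (158 CPM).

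In 6 of these genes, over 11 pairs of gene and myeloid class, tumor passed the 2-fold rule against normal lung in the same direction in both genotypes, 5 pairs higher and 6 lower. The share of all genes past the rule in both genotypes was not computed, so these pairs are a description. The LTB4 receptor Ltb4r1 was higher in neutrophil-like cells, at 41.8, 53.0, 124 and 156 CPM, and in macrophage-like cells, at 11.8, 11.6, 34.2 and 37.1 CPM. Ptgr1, a prostaglandin reductase, was higher in macrophage-like cells (2.78, 5.80, 44.0 and 35.1 CPM), and Pla2g7 in classical monocyte-like cells (139, 117, 331 and 371 CPM) and alveolar macrophage-like cells (2.14, 2.53, 26.5 and 13 CPM). Macrophage-like cells held Hpgd at 204, 205, 13.4 and 19.8 CPM and Ptger4 at 77.1, 103, 17.6 and 26.8 CPM, so both were lower in tumor. Both were lower in classical monocyte-like cells too, as were Ptger4 in alveolar macrophage-like cells and Cyp4f18 in neutrophil-like cells, at the levels given above. Normal and tumor macrophage-like cells came from different clusters in WT, as described above. Between the tumor libraries, Fpr2, a receptor for lipoxin and formyl peptides, was higher in Rab37 KO in neutrophil-like cells (243 against 120 CPM, ratio 2.02, 1.60 to 2.60), macrophage-like cells (39.9 against 12.5 CPM) and the Arg1/Pf4-led cluster (74.3 against 19.0 CPM). In neutrophil-like cells 23 of the 42 genes had enough UMIs. Plaa and Fpr2 were higher and Pla2g4a, Ptges2, Cbr1 and Ptgr2 lower, against 7.89% and 8.35% of all genes. In macrophage-like cells 24 had enough. Cysltr1 (59.4 against 23.1 CPM) and Fpr2 were higher and Mgst2 and Ptgir (12.5 against 32.4 CPM) lower, against 10.8% and 2.98%. In the Arg1/Pf4-led cluster 25 had enough. Fpr2 was higher and Ptges2, Cbr1, Mgst2, Dpep2 and Ptgr2 lower, against 7.63% and 13.7%. In alveolar macrophage-like cells 21 had enough. Cbr1, Abcc1 and Ptger4 were higher and Pla2g7 and Ptgir lower, against 11.6% and 5.71%. In classical monocyte-like cells none of 11 passed, against 9.24% and 5.61%.

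Genes whose level followed that of a member most closely over the 37 pairs of class and library were listed by Pearson's r of log2(CPM + 10), as a description over pairs that share libraries and lineages. Ptgs2 was closest to Il1b (r = 0.946), an inflammatory cytokine, followed by Adam8 and Clec4d. Ltc4s was closest to Marco (0.959) and Mertk (0.958), phagocytic receptors, and Hpgds to Fcrls (0.863). Alox15 was close to Cxcl5 (0.929) and Prg4 (0.825). These values rest on few pairs, since the highest Alox15 levels were 68.2, 18.2 and 16.1 CPM and the next was 1.94 CPM. The Prg4-led cells were too few to be among the pairs. For the others the closest were Gda for Alox5ap (0.967), Cebpa for Tbxas1 (0.934), Itga9 for Ptgs1 (0.920), Nnmt for Ptges (0.915), Dmxl2 for Alox5 (0.875) and Pdcd6ip for Lta4h (0.826). Among the members themselves the closest pairs were Tbxas1 with Ltc4s (0.843), Alox5 with Ltc4s (0.744) and Ptgs2 with Alox5ap (0.741).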

How the data were processed

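The deposited matrices hold whole-number UMI counts per gene and cell barcode, not normalized, from 10x Genomics 3′ libraries of sorted CD45-positive cells, 1 library for each of 4 groups. Per the submitters' processing notes the genome build was mm10. The software version was 3.0.1 for normal lung and 3.1.0 for tumor, per the file headers. No source used here names the aligner. Each barcode held at least 500 UMIs.

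A cell was kept with 200 genes or more and a mitochondrial share of 10% or less (5242 and 4726 cells of normal WT and Rab37 KO, 647 and 2729 of tumor WT and Rab37 KO). Doublets called by Scrublet were removed: 179, 80, 3 and 4, which is 0.464% and 0.147% of cells in the tumor libraries, so doublets there may remain. All libraries were clustered together with scanpy 1.11.5 in Python 3.11.15 (2000 variable genes, 30 components, 15 neighbours, Leiden resolution 1.0, no batch correction), giving 28 clusters. The variable genes excluded the 10 genes, Rab37 and genes linked to sex. A cluster took the class whose markers scored at least 1.5 (mean log2 difference in CPM with 10 added) with at least 3 markers in at least 10% of its cells. That limit, and which clusters stayed unnamed, were set after the clusters and the genes' levels in them had been seen. The 10 genes, the marker and pathway lists and the tests were chosen with earlier results of these data known.

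Counts were summed per class and library and given as CPM with exact Poisson 95% intervals. Ratios carry exact conditional binomial intervals (classes with at least 20 cells in both libraries) and shares of cells Clopper-Pearson intervals. For shares, cells were thinned to 1500 UMIs and shallower cells left out. A count of 0 is given as up to 3 counts. The calculations were tested on simulated data. No test across libraries was possible with 1 library per group. All 10 genes are named. Of the other pathway genes, the 12 with the highest CPM and those past the 2-fold rule in tumor neutrophils, monocytes and macrophages are named, and for each member up to 3 genes most like it, among genes with at least 20 CPM in a class. Pathway genes past the rule between tumor and normal lung in both genotypes were added after their values were seen. Gene coordinates are from GENCODE vM21 and promoters from RefSeq, where 8 of the 10 genes matched. Alternatives covered doublets, resolution, classes given to each cell, removal of cells with neutrophil or Pf4 and Ppbp UMIs, the CPM total, thinning and thresholds. Single-cluster ratios and removal of Alox15-rich cells were added after seeing the data. No column of values was left unused (0).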

Additional observations from a re-analysis of the deposited data

Results flagged for a closer look

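In each case below 1 library pair moved up and the other down, with intervals for counting error on opposite sides of 1, and the difference between the ratios was not tested, since each group has 1 library.

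The ratio of Rab37 KO over WT differed between tumor and normal lung for Ltc4s in macrophage-like cells (5.89 and 0.512), where the class was made of different clusters in the tumor libraries. In alveolar macrophage-like cells the same held for Ltc4s (1.24 and 0.866), Alox5ap (1.58 and 0.961) and Tbxas1 (0.581 and 1.16), with 21 cells in tumor WT behind each tumor value.

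The ratio of tumor over normal lung differed between WT and Rab37 KO for Ltc4s in macrophage-like cells (0.148 and 1.70), in alveolar macrophage-like cells (0.788 and 1.13) and in dendritic cell-like cells (10.4 and 0.0750, from 13 and 2 tumor UMIs). It also differed for Ptgs2 in macrophage-like cells (0.336 and 1.22).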

How the results depend on the processing

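No paired analysis was possible because each group has 1 library. Over 148 single ratios and 13 settings, 1280 of 1411 recomputed values lay within the counting-error interval of the main ratio and 125 lay outside it. The other 6 changed direction, which was looked for only in ratios past the 2-fold rule. Ratios short of that rule may have crossed 1 without being counted here. Those 6 were Alox15 in normal macrophage-like cells, KO over WT (0.352 with classes given to each cell), Ptgs2 in alveolar macrophage-like cells, tumor over normal in WT (0.875 at resolution 2.0 and 0.958 without cells with a Pf4 or Ppbp UMI), and, in dendritic cell-like cells, tumor over normal in KO with classes given to each cell, Ptgs2 (2.76), Tbxas1 (1.54) and Ltc4s (1.78). The cause was not tested. Leaving out cells with a Pf4 or Ppbp UMI kept 3 of the 11 tumor KO over WT calls. The 5 macrophage-like ones could not be recomputed, since under 20 such cells were left in a library. With 1.5-fold and 10 UMIs, counts of higher and lower pairs of gene and myeloid class were 19 and 10 for KO over WT in tumor, 9 and 4 in normal lung, 14 higher for tumor over normal in WT, and 10 and 11 in KO, since that rule is looser. For KO over WT in tumor, the lower count was 2 at resolution 2.0 or as a mean over cells, and 0 with classes given to each cell, without Pf4 or Ppbp cells or without the top cell. In normal lung the higher count was 2 with doublets kept or classes given to each cell, and the lower count 3 with classes given to each cell and 2 at 5% mitochondrial UMIs or without Alox15-rich cells. For tumor over normal in WT the higher count was 3 at resolution 2.0 or without the top cell, 1 with classes given to each cell and 2 at 5% mitochondrial UMIs. In KO it was 15 with classes given to each cell and 3 without Pf4 or Ppbp cells. At 50 CPM the routes covered fell to 0 for PGE2, 2 for PGD2 and 3 each for thromboxane A2, LTB4 and LTC4, and at 10 CPM they were 15 for LTB4 and 3 for Alox15. Neutrophil-like cells with a Ptgs2 UMI were 80.1%, 86.9% and 77.3% without thinning in normal WT, normal Rab37 KO and tumor Rab37 KO, 68.4%, 74.0% and 59.4% at 1000 UMIs and 81.2%, 88.2% and 74.5% at 3000. Alveolar macrophage-like cells with all 3 LTC4 enzymes were 66.4%, 73.9%, 28.6% and 61.7% without thinning in the 4 libraries, 2.41% and 3.12% at 1000 UMIs in normal lung, and 22.1%, 22.2% and 20.7% at 3000 in normal WT, normal Rab37 KO and tumor Rab37 KO. Depth limits the tumor WT values most, where 21 alveolar macrophage-like cells and 40 cells of the Arg1/Pf4-led cluster were counted.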
